A study of Homo sapiens with 15 samples.

Results

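Glycosphingolipids are ceramides with a sugar head group, and 10 genes that build or carry such head groups were followed across 2 pancreatic cancer cell lines. They are UGCG, ST3GAL5, A4GALT, B4GALNT1, ST8SIA1, UGT8, GAL3ST1, GLTP, B3GALT4 and B3GALNT1, chosen by symbol as genes that act before, beside or after lactosylceramide. All 10 had a row among the 25503 genes of the expression table. GLTP is a carrier protein, and the other 9 encode enzymes.

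UGCG adds glucose to ceramide, and B4GALT5 or B4GALT6 then adds galactose to give lactosylceramide. From lactosylceramide the pathway branches. ST3GAL5 opens the ganglioside branch by adding a sialic acid (GM3), ST8SIA1 adds a further sialic acid (GD3), B4GALNT1 adds N-acetylgalactosamine (GM2 and GD2) and B3GALT4 adds galactose to those (GM1). A4GALT opens the globo branch (Gb3), which B3GALNT1 extends to globoside, and B3GNT5 opens the lacto and neolacto branch. Beside this route UGT8 puts galactose on ceramide, and GAL3ST1 sulfates the product to sulfatide. GLTP carries glycolipids between membranes on their cytosolic side. These lipids are known as cell surface antigens of tumour cells and as receptors for lectins and toxins.

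RNA sequencing covered AsPC-1 and Capan-1, established human lines of pancreatic ductal adenocarcinoma, in 15 libraries that fall into 5 groups of 3. AsPC-1 cells carried a control siRNA (siNC), an siRNA to B4GALT5 (siB4GALT5) or an siRNA to B3GNT3 (siB3GNT3), the gene of an N-acetylglucosaminyltransferase of O-glycans. Capan-1 cells carried siNC or siB3GNT3. Transfection with an siRNA lowers a transcript for a time and leaves the gene in place, each line stands for a single tumour, and no dose or time after transfection is used here.

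Levels are in FPKM, fragments scaled by transcript length and library size, so they can be set side by side between genes. Differences are on log2(FPKM + 1), a scale that understates changes of low genes, and were tested with limma; a gene was called at a Benjamini-Hochberg adjusted p under 0.05. Sequencing depth is unknown. Relative depths read from steps between low FPKM values were 0.949 to 1.03. Only near-equal steps entered that reading, so it could not show unequal depths. No label ties the replicates to separate cultures, and p-values cover only how far these libraries spread. In bulk RNA, fewer cells that express a gene and less of its RNA per cell cannot be told apart. Of 6 ductal epithelial markers, 6 reached a mean of 1 FPKM in Capan-1 siNC and 5 in AsPC-1 siNC, where CDH1, the E-cadherin gene, was at 0.210 ± 0.0382 FPKM (SD, n = 3). Acinar markers summed to at most 0.153 FPKM in any group, and few markers of other cells reached a mean of 1 FPKM. Of 5 fibroblast markers, 1 did in AsPC-1 siNC (LUM, 85.6 FPKM) and 2 in Capan-1 siNC (COL1A1 highest, 49.95 FPKM). With siB3GNT3 in Capan-1, 3 fibroblast markers did, with COL1A1 at 75.7 FPKM. Of 5 leukocyte markers, 1 did in AsPC-1 siNC and 2 in Capan-1 siNC (CD68 highest, 163 FPKM). Of 3 endothelial markers, 1 did in Capan-1 siNC (PECAM1, 1.45 FPKM). Summed ductal markers were at 2023 to 2079 FPKM in AsPC-1 siNC, 1935 to 1951 with siB4GALT5 and 1642 to 1652 in the kept siB3GNT3 libraries, and at 4764 to 4986 FPKM in Capan-1 siNC and 3039 to 3906 with siB3GNT3. The part of these marker differences in the results was not tested.

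Both targets were checked first. B4GALT5 was at 38.7, 35.8 and 35.5 FPKM in AsPC-1 siNC and at 8.71, 8.49 and 8.03 FPKM in siB4GALT5. B3GNT3 was at 22.5, 23.8 and 23.3 FPKM in AsPC-1 siNC, at 2.53 and 2.50 FPKM in siB3GNT3 replicates 1 and 2, and at 24.2 FPKM in the one labelled AsPC-1 siB3GNT3 replicate 3. It was set apart from every fit because its target was not reduced. Over the 10 genes its distance (root mean square on the log2 scale) was 0.0688 to 0.161 to siNC libraries and 0.498 to 0.511 to those of its own group. Results for siB3GNT3 in AsPC-1 therefore describe 2 kept libraries, not the group as labelled. In Capan-1, B3GNT3 was at 13.3, 13.2 and 13.7 FPKM in siNC and at 1.32, 1.67 and 1.84 FPKM in siB3GNT3.

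**Figure D1:**
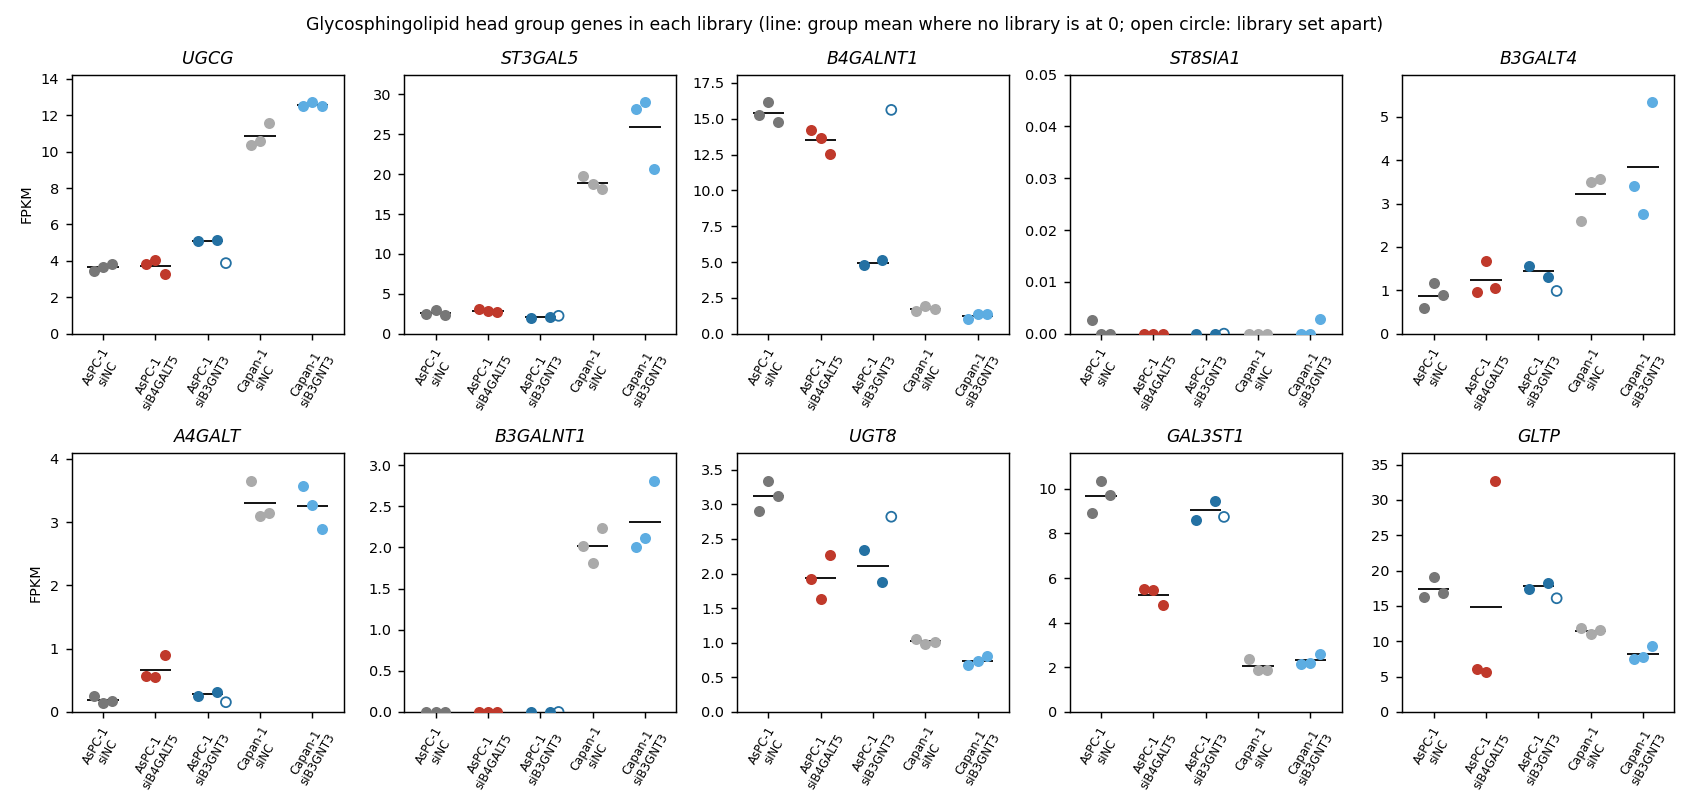
FPKM of each of the 10 genes in each library, by line and siRNA, with a black line at the group mean where no library is at 0 and an open circle for AsPC-1 siB3GNT3 replicate 3 as labelled. B4GALNT1 falls to 4.81 and 5.12 FPKM in the 2 kept AsPC-1 siB3GNT3 libraries, and GLTP is at 6.14, 5.72 and 32.7 FPKM in the siB4GALT5 libraries.

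In control cells the lines differed in which genes of the pathway had high mRNA levels. Lipids and enzyme activities were not measured. AsPC-1 was high in B4GALNT1, GAL3ST1 and UGT8, and Capan-1 in ST3GAL5, UGCG, A4GALT, B3GALT4 and B3GALNT1. Of the 9 genes past the filter, 8 were called, 5 higher and 3 lower in Capan-1, against 78.1% of all 12236 genes called (43.6% higher, 34.5% lower). The median log2 difference was 1.18 over the 9 and 0.09 over all genes, and rescaling every library to a common FPKM sum moved the latter to 0.23. A4GALT and B3GALNT1 passed the filter only through Capan-1, and UGT8 only with the AsPC-1 libraries, so these 3 had to differ. Their counts support nothing, and neither does the median over the 9, which includes them.

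The gene of the entry step was higher in Capan-1. UGCG (chr9:111896814-111935369, plus strand, RefSeq positions on GRCh38 throughout) was at 3.43, 3.65 and 3.83 FPKM in AsPC-1 siNC and at 10.4, 10.6 and 11.6 FPKM in Capan-1 siNC. The groups did not overlap, and the means differed 2.99-fold (log2 difference 1.36, SE 0.07, adjusted p = 3.7e-10).

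Genes of the ganglioside branch differed between the lines in opposite directions. ST3GAL5 (chr2:85837120-85889034, minus strand), the GM3 synthase gene, was at 2.49, 3.01 and 2.28 FPKM in AsPC-1 siNC and at 19.8, 18.7 and 18.2 FPKM in Capan-1 siNC, a 7.28-fold difference of means (log2 difference 2.47, SE 0.11, adjusted p = 6.57e-11). B4GALNT1 (chr12:57623409-57633201, minus strand), the GM2 synthase gene, ran the other way, at 15.3, 16.1 and 14.8 FPKM in AsPC-1 siNC against 1.58, 1.91 and 1.72 FPKM in Capan-1 siNC (log2 difference -2.58, SE 0.08, adjusted p = 8.94e-13). Every AsPC-1 siNC library was above every Capan-1 siNC library for B4GALNT1 and below for ST3GAL5. In the ranking of all 12236 genes by size of difference, ST3GAL5 stood at 552 and B4GALNT1 at 497. B3GALT4 (chr6:33277123-33278825, plus strand), the GM1 synthase gene, was higher in Capan-1, at 0.581, 1.16 and 0.889 FPKM in AsPC-1 siNC and at 2.60, 3.51 and 3.58 FPKM in Capan-1 siNC (log2 difference 1.18, SE 0.18, adjusted p = 3.52e-05). ST8SIA1 (chr12:22193391-22334707, minus strand), which makes GD3, was listed at 0 in 13 of 15 libraries, with 0.00261 FPKM in AsPC-1 siNC replicate 1 and 0.00275 FPKM in Capan-1 siB3GNT3 replicate 3. It passed no filter and was not tested.

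Both genes of the globo branch were low in AsPC-1. A4GALT (chr22:42692121-42721301, minus strand) was at 0.245, 0.134 and 0.174 FPKM in AsPC-1 siNC and at 3.66, 3.10 and 3.15 FPKM in Capan-1 siNC, with a 17.9-fold ratio of the means. B3GALNT1 (chr3:161083883-161105349, minus strand) was at 0.00524 FPKM in AsPC-1 siNC replicate 1 and listed at 0 in replicates 2 and 3, against 2.01, 1.81 and 2.24 FPKM in Capan-1 siNC. Every siNC library was over 1 FPKM for both genes in Capan-1 and under 1 FPKM in AsPC-1.

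Both genes of the sulfatide route were higher in AsPC-1. UGT8 (chr4:114598402-114678225, plus strand) was at 2.90, 3.34 and 3.12 FPKM in AsPC-1 siNC and at 1.06, 0.983 and 1.01 FPKM in Capan-1 siNC, and GAL3ST1 (chr22:30554635-30574665, minus strand) at 8.91, 10.4 and 9.73 against 2.37, 1.86 and 1.90 FPKM. For both genes all AsPC-1 libraries lay above all Capan-1 libraries. GAL3ST1 differed by -1.81 on the log2 scale (SE 0.09, adjusted p = 1.65e-10). GLTP (chr12:109850945-109880541, minus strand), the carrier, was at 16.2, 19.1 and 16.9 FPKM in AsPC-1 siNC and at 11.9, 11.1 and 11.6 FPKM in Capan-1 siNC, also without overlap. Its log2 difference of -0.55 was not called in the fit of all 5 groups (adjusted p = 0.243), whose spread holds an outlying siB4GALT5 library, and was called when only both siNC groups were fitted (adjusted p = 1.48e-05).

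Ordered by level, AsPC-1 siNC ran GLTP, B4GALNT1, GAL3ST1, UGCG, UGT8, ST3GAL5, B3GALT4, A4GALT, B3GALNT1 and ST8SIA1, and the library ranges of neighbours overlapped only for UGT8 with ST3GAL5 and for B3GALNT1 with ST8SIA1. Capan-1 siNC ran ST3GAL5, GLTP, UGCG, A4GALT, B3GALT4, GAL3ST1, B3GALNT1, B4GALNT1, UGT8 and ST8SIA1. There the ranges overlapped for GLTP with UGCG, A4GALT with B3GALT4, and GAL3ST1 with B3GALNT1 and B3GALNT1 with B4GALNT1.

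**Figure D2:**
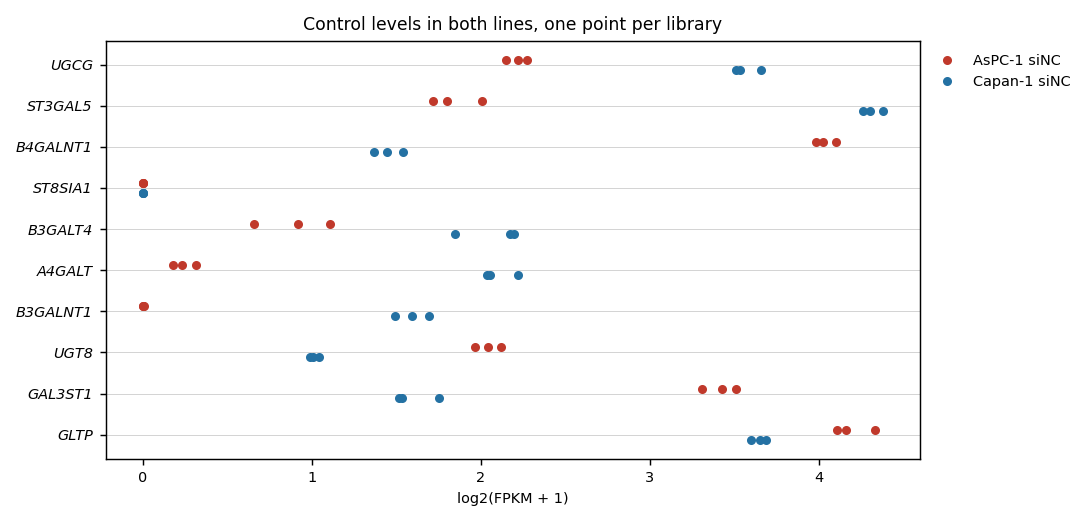
log2(FPKM + 1) of each gene in the 3 AsPC-1 siNC and 3 Capan-1 siNC libraries, with a point for each library. B4GALNT1, UGT8, GAL3ST1 and GLTP lie to the right in AsPC-1, and ST8SIA1 lies at or near 0 in both lines; libraries of the 2 lines did not overlap for 85.5% of the 11656 genes at 1 FPKM or more in 3 siNC libraries, so points that stay apart are common.

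Promoter sequence is shown for 2 pairs: A4GALT with B3GALNT1, which were both under 1 FPKM in AsPC-1, and UGT8 with GAL3ST1, which act in sequence and fell together under siB4GALT5. Each run holds the 100 bases before the most upstream start in RefSeq (GRCh38.p14), 5′ to 3′ on the gene's strand, with GC boxes (GGGCGG, or CCGCCC for the other strand) in capitals. The runs are chr22:42721302-42721401 (minus) for A4GALT, chr3:161105350-161105449 (minus) for B3GALNT1, chr4:114598302-114598401 (plus) for UGT8 and chr22:30574666-30574765 (minus) for GAL3ST1.
A4GALT: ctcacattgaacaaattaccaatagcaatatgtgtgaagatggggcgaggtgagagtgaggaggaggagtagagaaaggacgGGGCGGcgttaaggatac
B3GALNT1: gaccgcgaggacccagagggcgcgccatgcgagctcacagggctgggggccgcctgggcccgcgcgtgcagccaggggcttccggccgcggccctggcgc
UGT8: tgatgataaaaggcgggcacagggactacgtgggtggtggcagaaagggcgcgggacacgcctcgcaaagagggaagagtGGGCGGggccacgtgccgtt
GAL3ST1: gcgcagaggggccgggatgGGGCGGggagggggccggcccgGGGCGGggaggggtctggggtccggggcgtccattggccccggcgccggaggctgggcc

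A GC box stood in 31.3% of 34741 runs of this length, so a match is common and describes the letters only. The GAL3ST1 run held 2 GC boxes, those of A4GALT and UGT8 held 1 each, and in the B3GALNT1 run these letters did not occur. Base composition differed within the globo pair for these runs, but not for every start. G and C made up 49.0% of the A4GALT run and 81.0% of the B3GALNT1 run, with a median of 60% over all runs. Over the 250 bases before each start they made up 42.0% and 79.2% for A4GALT and 60.8% to 70.4% for B3GALNT1. The A4GALT run held 4 CpG and the B3GALNT1 run 13, against a median of 5. In the sulfatide pair the shares were 64.0% for UGT8 and 85% for GAL3ST1. RefSeq lists further starts for each, 2 in all for A4GALT and 3 for each of the others, and the deposited values do not say which start was used. Promoters were found for 8 of the 10 genes, not for B4GALNT1 and B3GALT4.

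Knockdown of B4GALT5 in AsPC-1 lowered both genes of the sulfatide route, and B4GALNT1 by less. Of 7 genes tested 3 fell and the other 4 did not pass the test, where 58.2% of all 10775 genes were called, 35.2% higher and 23.0% lower. Of the genes called, 60.5% were higher, against 49.1% after median-ratio scaling and 70.9% after scaling to a common sum. The median log2 fold change was -0.18 over the 7 and 0.06 over all genes, and the total of 3 called of 7 lies under the share called in the whole table. Libraries of siB4GALT5 and siNC did not overlap for 64.3% of 10601 genes at 1 FPKM or more in 3 of them, so separation is common.

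GAL3ST1 was at 5.52, 5.45 and 4.81 FPKM in siB4GALT5, below every siNC library (8.91 to 10.4 FPKM). It fell by 0.77 on the log2 scale (SE 0.08, adjusted p = 3.3e-05), from 9.67 ± 0.733 to 5.26 ± 0.391 FPKM (SD, n = 3), the 273rd largest fall of the 10775 genes. UGT8, which makes its substrate, was at 1.92, 1.63 and 2.26 FPKM, again below all siNC libraries, and fell by 0.49 (SE 0.10, adjusted p = 0.00225). Both calls held with each library left out in turn and in the other settings, except that the filter of 5 FPKM left UGT8 untested.

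Among the ganglioside genes, B4GALNT1 was at 14.2, 13.7 and 12.5 FPKM in siB4GALT5, just under the lowest siNC library at 14.8 FPKM. It fell by 0.18 (SE 0.07, adjusted p = 0.0393). That call did not hold without the filter (adjusted p = 0.0611), after scaling to a common sum (0.224), with the library set apart kept (0.687), or without siNC replicate 1, 2 or 3 or siB4GALT5 replicate 2 or 3 (0.0512 to 0.14). ST3GAL5 was at 3.08, 2.82 and 2.74 FPKM, within or just above the siNC range, with a log2 fold change of 0.11 (95% interval -0.08 to 0.31). B3GALT4 was at 0.963, 1.68 and 1.06 FPKM (log2 fold change 0.25, 95% interval -0.08 to 0.58). UGCG, which makes the substrate of B4GALT5, was at 3.82, 4.06 and 3.30 FPKM, overlapping siNC, with a log2 fold change of 0.03 and a 95% interval of -0.15 to 0.20.

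In the globo branch A4GALT was at 0.567, 0.546 and 0.894 FPKM in siB4GALT5, above all 3 siNC libraries, and the ratio of means was 3.63. It lay under the filter of 1 FPKM; with no filter its log2 fold change was 0.49 (adjusted p = 0.00556). B3GALNT1 was listed at 0 in all 3 siB4GALT5 libraries.

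The siB4GALT5 libraries lay far apart for GLTP, on both sides of siNC. It was at 6.14 and 5.72 FPKM in replicates 1 and 2 and at 32.7 FPKM in replicate 3, with siNC between 16.2 and 19.1 FPKM. Over all 3 its log2 fold change was -0.65 (SE 0.50, adjusted p = 0.296), and without replicate 3 it was -1.41 (adjusted p = 1.14e-07). Replicate 3 also stood apart over all genes, at a distance of 0.242 and 0.261 to replicates 1 and 2, which were 0.151 from each other; all 3 were at 0.456 to 0.495 from siNC. Of 6903 genes with a siNC mean of at least 5 FPKM, 138 were at or under 50% of it in replicates 1 and 2, and 5 of those were at or above it in replicate 3. These 5, named after their values were seen, were APMAP, CENPE, GLTP, GOLGA4 and NOTCH2; GLTP alone stood at 32.7 FPKM against a siNC mean of 17.4 FPKM, while APMAP stood at 57.5 against 53.4 FPKM. SPTLC1, a subunit of the enzyme that starts sphingolipid synthesis, fell just short of that count, at 7.14 and 7.18 FPKM in replicates 1 and 2 and 20.8 FPKM in replicate 3 against a siNC mean of 22.6 FPKM. With siB3GNT3 SPTLC1 also fell in Capan-1 (log2 fold change -0.79, limma adjusted p = 0.000477). In the kept AsPC-1 siB3GNT3 libraries it was at 17.2 and 16.8 FPKM and was not called (-0.40, adjusted p = 0.368). SPTLC1 belongs to none of the gene lists used here and was picked for its function with its values known. Other near misses were not counted, and a link to GLTP was not tested.

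Knockdown of B3GNT3 in AsPC-1, read from the 2 kept libraries, gave a large fall of B4GALNT1 with a lower UGT8 and a higher UGCG. Of 7 genes tested 1 rose and 2 fell, where 52.9% of all 10775 genes were called, 32.5% higher and 20.4% lower; 61.5% of those called were higher, against 46.7% after median-ratio scaling and 72.2% after scaling to a common sum. Median log2 fold changes were -0.09 over the 7 and 0.07 over all genes. The 2 kept libraries did not overlap siNC for 75.8% of 10430 genes, so separation is common here too. With the library set apart kept, limma called 0 of 10804 genes (3011 at an unadjusted p under 0.05) and 0 of the 7 (3 unadjusted), with adjusted p = 0.168 for B4GALNT1, UGT8 and UGCG alike.

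B4GALNT1 was at 4.81 and 5.12 FPKM in the kept siB3GNT3 libraries, far below 14.8 to 16.1 FPKM in siNC, and at 15.6 FPKM in the library set apart. It fell by 1.46 (SE 0.07, adjusted p = 1.19e-06), to 0.323 of the siNC mean, the 31st largest fall of 10775 genes. With any library of either group left out the log2 fold change was -1.50 to -1.42. Upstream of it, ST3GAL5 was at 2.02 and 2.04 FPKM, under all siNC libraries, but its log2 fold change of -0.24 (SE 0.10) did not pass (adjusted p = 0.0624). B3GALT4 was at 1.56 and 1.32 FPKM, above all siNC libraries, and did not pass either (0.39, SE 0.16, adjusted p = 0.0711).

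UGCG was at 5.09 and 5.12 FPKM against 3.43 to 3.83 FPKM in siNC, with no overlap, and rose by 0.40 (SE 0.09, adjusted p = 0.00385). In the library set apart it was at 3.87 FPKM. UGT8 was at 2.34 and 1.88 FPKM, below siNC, and fell by 0.41 (SE 0.11, adjusted p = 0.0122), a call that ended without siB3GNT3 replicate 2 (adjusted p = 0.118). GAL3ST1, the next enzyme, was at 8.61 and 9.46 FPKM and overlapped siNC (log2 fold change -0.09, 95% interval -0.28 to 0.11). A4GALT was at 0.258 and 0.309 FPKM, above siNC but under the filter. With no filter its log2 fold change was 0.12 (SE 0.09) and was not called (adjusted p = 0.452). GLTP was at 17.4 and 18.3 FPKM, inside the siNC range.

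Knockdown of B3GNT3 in Capan-1 raised ST3GAL5 and lowered GLTP. Of 8 genes tested 1 rose and 1 fell, where 32.9% of all 11493 genes were called, 18.7% higher and 14.2% lower; 56.8% of those called were higher, against 46.1% after median-ratio scaling. Medians were 0.13 over the 8 and 0.02 over all genes. Libraries of siB3GNT3 and siNC did not overlap for 50.1% of the 11493 genes.

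ST3GAL5 was at 28.1, 29.01 and 20.7 FPKM in siB3GNT3, each above the siNC libraries (18.2 to 19.8 FPKM), with replicate 3 closest to them. It rose by 0.42 (SE 0.12, adjusted p = 0.0302). The call ended without the filter (adjusted p = 0.101) and without any siNC library or siB3GNT3 replicate 1 or 2 (0.0723 to 0.102), and was firmer without siB3GNT3 replicate 3 (0.57, adjusted p = 6.72e-05). That library moved the whole comparison: without it 5715 genes were called in place of 3786, and 4 of the 8 in place of 2.

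GLTP was at 7.49, 7.80 and 9.32 FPKM in Capan-1 siB3GNT3, under all siNC libraries (11.1 to 11.9 FPKM). It fell by 0.45 (SE 0.09, adjusted p = 0.00741), and the call held with each library left out (adjusted p at most 0.0385).

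The next 4 genes lay apart from siNC in some libraries only or missed the threshold. UGCG was at 12.5, 12.7 and 12.5 FPKM, above siNC (10.4 to 11.6 FPKM), at a log2 fold change of 0.20 (adjusted p = 0.0591). B4GALNT1 was at 1.06, 1.38 and 1.36 FPKM, under siNC, at -0.27 (adjusted p = 0.0588). UGT8 was at 0.676, 0.731 and 0.814 FPKM, under siNC and under the filter; with no filter its log2 fold change was -0.21 (adjusted p = 0.0698). B3GALT4 was at 3.40, 2.76 and 5.34 FPKM, above siNC (2.60 to 3.58 FPKM) in replicate 3 only, at 0.17 (adjusted p = 0.518). The other 3 overlapped siNC: A4GALT at 2.90 to 3.57 FPKM, B3GALNT1 at 2.00 to 2.81 FPKM and GAL3ST1 at 2.15 to 2.62 FPKM, with log2 fold changes of -0.02, 0.13 and 0.13.

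**Figure D3:**
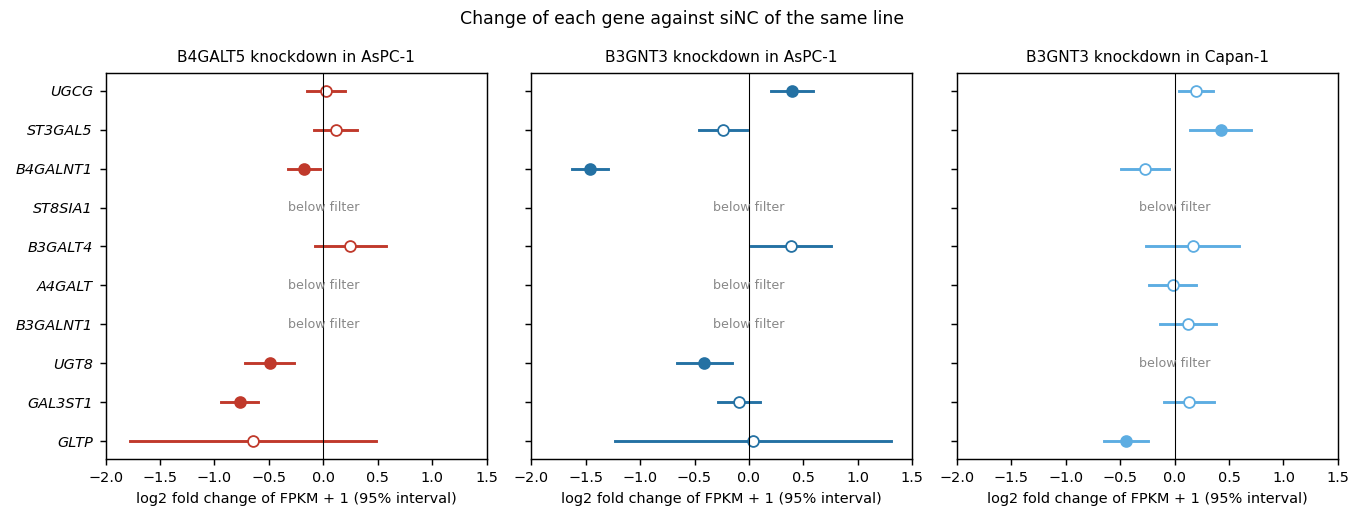
log2 fold change of FPKM + 1 with its 95% interval for each gene against siNC of the same line, in 3 panels for B4GALT5 knockdown in AsPC-1, B3GNT3 knockdown in AsPC-1 (2 kept libraries) and B3GNT3 knockdown in Capan-1. Filled points were called; B4GALNT1 at -1.46 lies farthest from 0, and the wide intervals of GLTP in AsPC-1 come from a fit that holds its siB4GALT5 values of 5.72 to 32.7 FPKM.

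The 2 knockdowns in AsPC-1 share their siNC libraries, so they were compared directly. Between siB4GALT5 and the kept siB3GNT3 libraries 4 of 7 genes were called, against 35.2% of all genes (17.8% higher and 17.4% lower with siB4GALT5). B4GALNT1 was higher with siB4GALT5 by 1.28 (SE 0.07, adjusted p = 3.92e-06) and ST3GAL5 by 0.36 (SE 0.10, adjusted p = 0.0198). GAL3ST1 was lower by 0.68 (SE 0.09, adjusted p = 0.000368) and UGCG by 0.37 (SE 0.09, adjusted p = 0.00919). UGT8, which fell in both, differed by -0.08 with a 95% interval of -0.34 to 0.17. The calls for UGCG and ST3GAL5 each ended without siB3GNT3 replicate 1 or replicate 2 (adjusted p = 0.0565 to 0.0981), that for ST3GAL5 also without siB4GALT5 replicate 1 (0.0606) or without the filter (0.0639), and those for B4GALNT1 and UGCG with the library set apart kept (0.139 and 0.135).

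The response to siB3GNT3 was compared between the lines by an interaction over 14 libraries. Of 9 genes 2 were called, both higher in Capan-1 relative to AsPC-1, against 32.8% of all 12236 genes (13.8% higher, 19.0% lower); 42.2% of all those called were higher, 53.0% after median-ratio scaling. B4GALNT1 fell by 1.46 in AsPC-1 and had a log2 fold change of -0.27 in Capan-1, a difference of 1.18 (SE 0.12, adjusted p = 1.2e-05). ST3GAL5 was at -0.24 in AsPC-1 and rose by 0.42 in Capan-1, a difference of 0.67 (SE 0.17, adjusted p = 0.00773). GLTP, called in Capan-1 only, differed by -0.48 (SE 0.63, adjusted p = 0.594), or at adjusted p = 0.0105 when the siB4GALT5 libraries were left out of the fit. UGCG differed by -0.20 (95% interval -0.43 to 0.03).

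Transcript ratios at the branch points put the same values on 1 scale, and are mRNA levels, not enzyme activities. B4GALNT1 over ST3GAL5 was 5.36 to 6.48 in AsPC-1 siNC, 4.58 to 4.86 in siB4GALT5 and 2.39 to 2.51 in the kept siB3GNT3 libraries, with 6.99 in the library set apart. In Capan-1 it was 0.0798 to 0.102 in siNC and 0.0376 to 0.0661 in siB3GNT3. Knockdown ranges lay below those of siNC in both lines. Shares were taken over ST3GAL5, A4GALT and B3GNT5, the 3 genes described above as opening branches from lactosylceramide. The lacto opener B3GNT5 made up 71.8% to 78.6% of their summed FPKM in AsPC-1 siNC and ST3GAL5 19.9% to 27.0%. In Capan-1 siNC ST3GAL5 made up 70.8% to 73.3% and B3GNT5 14.6% to 17.0%. Other genes are not in the sum: in AsPC-1 siNC, B4GALNT1 (mean 15.4 FPKM) and GAL3ST1 (9.67 FPKM) were above B3GNT5 (8.64 FPKM). The A4GALT share was 1.20% to 2.11% in AsPC-1 siNC, 4.71% to 7.72% in siB4GALT5 and 3.31% to 3.99% in the kept siB3GNT3 libraries, with knockdown ranges above siNC. In Capan-1 the share ran the other way, from 12.1% to 13.2% in siNC to 9.13% to 9.99% in siB3GNT3. A share moves with each gene of the sum. From siNC to siB3GNT3 in Capan-1, mean A4GALT was 3.30 and 3.25 FPKM, and mean ST3GAL5 18.9 and 25.9 FPKM. In AsPC-1, from siNC to the kept siB3GNT3 libraries, mean A4GALT was 0.1844 and 0.2835 FPKM, and mean B3GNT5 8.64 and 5.45 FPKM. GAL3ST1 over UGT8 was 3.07 to 3.12 in AsPC-1 siNC and 2.13 to 3.35 in siB4GALT5, a range that spans that of siNC. It was above siNC with siB3GNT3 in both lines, at 3.68 to 5.04 in the kept AsPC-1 libraries and at 3.03 to 3.22 in Capan-1 against 1.87 to 2.24 in its siNC.

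**Figure D4:**
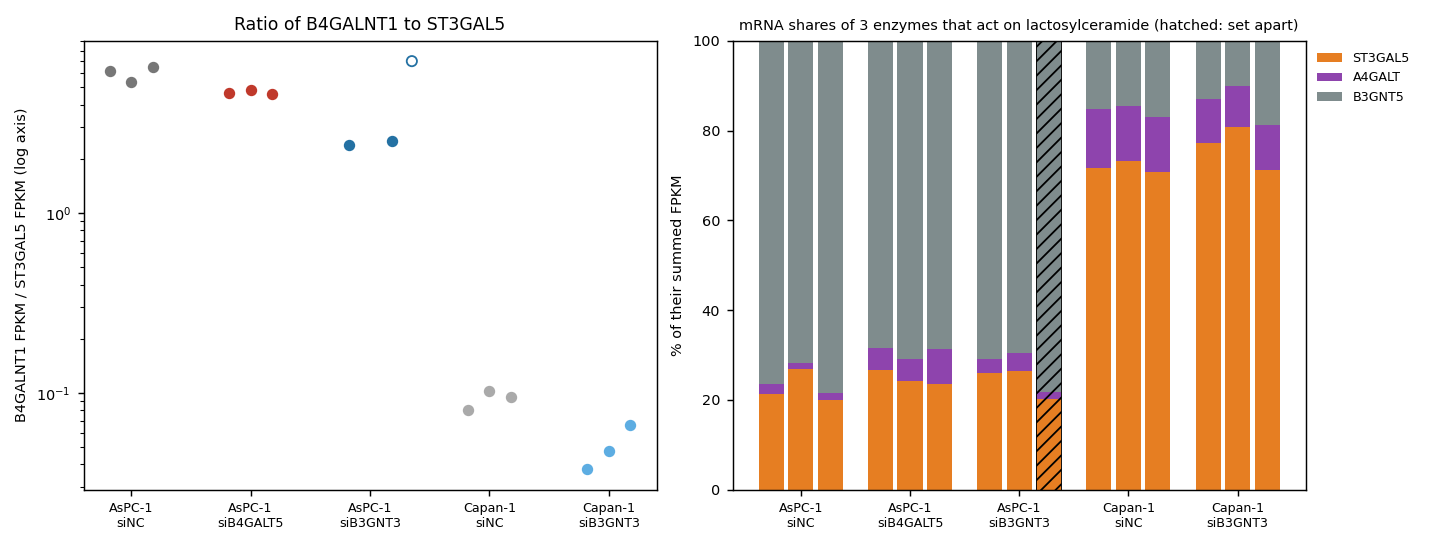
Left, the ratio of B4GALNT1 to ST3GAL5 FPKM in each library on a log axis, by group, with an open circle for the library set apart. Right, for each library, the percent of summed FPKM held by ST3GAL5, A4GALT and B3GNT5, with the library set apart hatched; B3GNT5 fills 71.8% to 78.6% in AsPC-1 siNC and ST3GAL5 70.8% to 73.3% in Capan-1 siNC.

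Some of the 10 varied together across libraries. With each library set against the siNC mean of its line, over the 14 libraries of 5 groups, UGT8 and GAL3ST1 had a Pearson r of 0.65, UGCG and B4GALNT1 one of -0.83, and A4GALT and GAL3ST1 one of -0.91. These pairs were picked as the highest and lowest values, and all other pairs ran from -0.66 to 0.53. A4GALT was under 1 FPKM in every AsPC-1 library. Among 7462 other genes, those most like each gene by the same measure were RDH11 (0.994), SNX17 and GRSF1 for B4GALNT1, RPN2 (0.979), ARL6IP4 and ARL6IP5 for GAL3ST1, and KIF14 (0.975), ATAD2 and FAM111B for UGT8. For ST3GAL5 they were C17orf80 (0.955), RAI1 and STAU1, for GLTP SERPINB1 (0.952), C1GALT1 and CRTAP, and for UGCG NOLC1 (0.933), SMARCD1 and RB1CC1. Libraries of a group share their treatment, and these values carry no test.

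Of the genes around them, the lactosylceramide synthase gene B4GALT6 rose by 0.23 with siB4GALT5 (SE 0.08, adjusted p = 0.0297) and fell by 0.53 with siB3GNT3 in Capan-1 (SE 0.10, adjusted p = 0.00553). Its level, 4.64 ± 0.331 FPKM in AsPC-1 siNC and 5.59 ± 0.496 FPKM with siB4GALT5 (SD, n = 3), stayed under the 8.03 to 8.71 FPKM left of B4GALT5. The shares of all genes called that were given with each knockdown (58.2%, 52.9% and 32.9%) are the background for the counts of related genes that follow, and nothing particular to a list is read from them. Of 14 lacto and neolacto genes, 4 of 9 tested rose with siB4GALT5 (35.2% of all genes), 4 rose and 2 fell with siB3GNT3 in AsPC-1 (32.5% and 20.4%), and 1 of 8 tested rose and 1 fell in Capan-1 (18.7% and 14.2%). B4GALT1, a galactosyltransferase of these chains, rose in all 3 (1.83, 1.79 and 0.72), and B3GNT5 fell by 0.58 with siB3GNT3 in AsPC-1 (adjusted p = 0.000129). Of 8 later ganglioside sialyltransferases, 4 were tested: 2 rose and 1 fell with siB4GALT5, 2 fell with siB3GNT3 in AsPC-1 and 1 fell in Capan-1. ST6GALNAC4 fell by 1.27 and 0.64 in the latter 2 comparisons.

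In the breakdown of these lipids, 2 of 13 genes tested rose and 5 fell with siB4GALT5 (35.2% and 23.0% of all genes), with the same counts for siB3GNT3 in AsPC-1 (32.5% and 20.4%) and 2 up and 4 down in Capan-1 (18.7% and 14.2%). NEU3, a membrane sialidase of gangliosides, fell in all 3 (by 0.60 and 0.81 in AsPC-1 and by 0.48 in Capan-1), as did GM2A, the activator protein of GM2 breakdown (by 0.70, 0.42 and 0.67). SCARB2, a lysosomal membrane protein, rose in all 3 (0.33, 0.48 and 0.19). Of 9 genes for lipid transfer and Golgi factors, 5 rose and 1 fell, then 2 rose and 2 fell, and in Capan-1 2 of 8 tested rose and 1 fell. LAPTM4A, a membrane protein needed for Gb3 synthesis, fell with siB3GNT3 by 1.09 in AsPC-1 (SE 0.08, adjusted p = 6.1e-06) and by 1.34 in Capan-1 (SE 0.17, adjusted p = 0.001). With siB4GALT5 it rose by 0.19 (SE 0.07, adjusted p = 0.0391). Among 18 genes for sugar and sulfate donors and their carriers, 7 fell in each of the 3 comparisons, while 4, 1 and 1 rose. PAPSS1, which makes the sulfate donor used by GAL3ST1, fell by 0.68 with siB4GALT5 (SE 0.05, adjusted p = 7.88e-06) and by 0.88 with siB3GNT3 in AsPC-1 (SE 0.06, adjusted p = 5.26e-06).

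Genes on the opposite strand overlap 5 of the 10 in GENCODE 29, and no source used here gives whether counting used strand, so reads of a pair may not be told apart. B3GALT4 overlaps WDR46, which was at 15.6 ± 0.880 FPKM in AsPC-1 siNC and 9.62 ± 3.01 FPKM with siB4GALT5 (SD, n = 3), a fall where B3GALT4 had a log2 fold change of 0.25. B3GALNT1 overlaps NMD3 and ST8SIA1 overlaps CMAS, which were at 17.0 ± 0.488 and 21.6 ± 1.44 FPKM in AsPC-1 siNC while both members were at or near 0 there. ST3GAL5 overlaps ST3GAL5-AS1, which did not exceed 0.871 FPKM in any siNC library. B4GALNT1 overlaps SLC26A10, which has no row in the table used here.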

How the data were processed

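The authors deposited 1 table of FPKM values per gene for the 15 libraries, used as it stands. Per the submitters' processing notes, Bowtie2, RSEM 1.3.1, DESeq2 1.4.5 and GRCh38 were used; which tool served which step, and the gene annotation, are not given in the sources used here. Columns were matched to groups by the submitters' labels.

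Differences were tested with limma 3.58.1 (R 4.3.3, intensity trend) on log2(FPKM + 1), over genes with at least 1 FPKM in at least 3 libraries of the fit, with Benjamini-Hochberg adjustment over all of them. The AsPC-1 fit held 8 libraries, the Capan-1 fit 6, and the fit of both lines, used for the interaction and the control levels, 14. Sample titles number the replicates alike in each group, while library names carry other numbers in some groups. Correlations of deviations with the same title number ran from -0.0574 to 0.0599, and the main fits hold no block. Pairs by library name were not examined, so a shared batch is not excluded.

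The 10 genes and the 7 lists of 69 related genes were chosen with earlier results of these data known; 1 further gene is not reported here. Named are all 10, both targets, up to 2 called genes of each list per knockdown with the smallest p, and the 3 genes most like each called one among those with a mean of at least 5 FPKM. Ranges, SDs and ratios were computed in Python 3.11.15 with numpy 2.4.6 and pandas 2.3.3, and figures drawn with matplotlib 3.10.9. Each fit was first tested on simulated data. Alternatives were a pseudocount of 0.1, no filter, a filter of 5 FPKM, 2 rescalings, no trend, a replicate block, only the groups compared, the library set apart kept, and each library left out.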

Additional observations from a re-analysis of the deposited data

Results flagged for a closer look

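ST3GAL5 and B4GALNT1 differed between the lines in their response to siB3GNT3 by the interaction test in limma with Benjamini-Hochberg adjustment. B4GALNT1 differed by 1.18 on the log2 scale (Capan-1 minus AsPC-1, adjusted p = 1.2e-05): it was lower in 2 of 2 kept AsPC-1 libraries and in 3 of 3 Capan-1 libraries than in all siNC libraries of the line, by unequal amounts. With the library labelled AsPC-1 siB3GNT3 replicate 3 kept in its group the difference was 0.69 (adjusted p = 0.282). ST3GAL5 differed by 0.67 (adjusted p = 0.00773): it was lower than siNC in 2 of 2 AsPC-1 libraries and higher in 3 of 3 Capan-1 libraries. Such separation from siNC was common, at 75.8% of 10430 genes in AsPC-1 and 50.1% of 11493 genes in Capan-1. The starting levels also differed, 15.4 against 1.74 FPKM for B4GALNT1 and 2.59 against 18.9 FPKM for ST3GAL5 (AsPC-1 and Capan-1 siNC means), and the part of that in the interaction was not tested.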

How the results depend on the processing

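Of the values that were called, 174 of 185 kept direction and call under the other settings and 119 of 135 with a library left out. Of those not called, 183 of 197 and 164 of 178 did. These counts pool all comparisons. All calls between the lines in control cells held with each library left out, so the calls lost that way lay in other comparisons. With the library labelled AsPC-1 siB3GNT3 replicate 3 kept, limma called 0 genes and 0 of the 10 for B3GNT3 knockdown in AsPC-1, 1716 genes and 2 of the 10 between both knockdowns, and 1204 genes and 1 of the 10 in the interaction. A filter of 5 FPKM left 1 of the 10 called for B3GNT3 in AsPC-1, 2 between both knockdowns and 4 between the lines, as fewer were tested; no filter left 1 called in Capan-1. With a library left out, counts ran from 2069 to 5715 genes and 1 to 4 of the 10 in Capan-1, and from 2134 to 4865 genes and 2 to 5 of the 10 between both knockdowns. Signs turned only for uncalled values: UGCG with siB4GALT5 (-0.041 after median-ratio scaling, -0.025 to 0.092 with a library left out), GLTP with siB3GNT3 in AsPC-1 (-0.068 after that scaling, -0.012 with the library set apart kept, -0.012 to 0.101), A4GALT in Capan-1 (0.013 after scaling to a common sum, -0.073 to 0.042), B3GALT4 in Capan-1 (-0.046 to 0.33) and UGT8 between both knockdowns (-0.192 to 0.024). Causes were not tested. A replicate block by title number, for which same-numbered correlations gave no ground, left 6285, 5470 and 3311 genes called in the 3 knockdown comparisons. With it ST3GAL5 with siB3GNT3 in AsPC-1 was called as well (-0.29, adjusted p = 0.044). Where a left-out library leaves an arm with 1, that library is assumed to vary like the others. FPKM give no counting error, so values near 0 (ST8SIA1, and B3GALNT1 in AsPC-1) cannot be told from 0.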
